A study of Mus musculus with 6 samples.

Results

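Interferon-stimulated genes (ISGs) were followed in germinal center (GC) B cells with and without the IL-21 receptor. The set held 46 named mouse genes, listed as well-known ISGs by a rule that used no measured value, although earlier results of these data were known when the list was made, out of 27179 genes in the count table. Of the 46, 38 passed the limit on low counts (an average log2 CPM, counts per 1e6 counted reads, of 0 or more) and were among the 11005 genes tested. RNA-seq had been performed on 6 libraries of spleen GC B cells from C57BL/6 mice, 1 from WT and 1 from *Il21r*-/- on each of days 7, 10 and 14 after intraperitoneal NP-KLH in alum. NP is a hapten and KLH its protein carrier, so that antigen-specific B cells can be recognized by NP binding. Cells had been sorted as B220+ NP+ IgG1+ and negative for CD38, CD138, IgM, IgD and Gr1, after enrichment of IgG1+ cells. WT mice carried no allele or agent other than the shared background and immunization, and *Il21r*-/- mice carried a germline deficiency of the IL-21 receptor, so every cell type lacked it in the donor animals. The methods state that nearly all experiments used irradiated Ly5.1 hosts reconstituted with WT or *Il21r*-/- bone marrow, in which some host cells can persist; the labels do not mention a transfer. The labels give 1 mouse per library and the methods give several mice per genotype from 2 immunizations. A supplementary legend of the paper gives 3 mice of each genotype for the day 7 sort. The number of animals behind the libraries of days 10 and 14 is unknown. It is not known which immunization a library came from, and the age of the mice is not given in the labels. All p-values below rest on 3 libraries per genotype, each from another day.

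Interferons are secreted cytokines that bind receptors on most cells. Type I interferons act through IFNAR1 and IFNAR2, interferon gamma through IFNGR1 and IFNGR2, and type III interferons through IFNLR1 and IL10RB. The receptors activate JAK kinases, which phosphorylate STAT factors. A complex that holds STAT2 and IRF9 binds the interferon-stimulated response element (ISRE), whereas STAT homodimers bind the gamma-activated site (GAS). ISGs encode sensors of foreign nucleic acid, enzymes that act on viral RNA, restriction factors, GTPases and regulators of the response itself. The IL-21 receptor signals through JAK1 and JAK3, mainly to STAT3.

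Between 21353438 and 27435124 reads were counted on genes per library, and the 46 ISGs held between 0.191% and 0.281% of them. *Il21r* itself stood at 346, 263 and 247 CPM (counts scaled by library size) in WT on days 7, 10 and 14 and at 106, 128 and 113 CPM in *Il21r*-/-. All WT libraries were thus above all *Il21r*-/- libraries, and the 2.45-fold difference passed the test over the 3 days (log2 difference WT minus *Il21r*-/- 1.29 ± 0.13 SE, n = 3 libraries per genotype; adjusted p = 0.00137, edgeR quasi-likelihood test). Counts are summed over the whole gene, so reads of a deleted part and of a part left in place cannot be told apart. As to the labelled cell type, 8 of 8 GC B cell markers passed the limit on low counts, with a summed level of 3060 to 3980 CPM in WT and 2850 to 3610 CPM in *Il21r*-/- and none called between genotypes. T cell markers (8 genes) summed to 1.3 to 2.49 CPM in WT and 4.09 to 4.54 CPM in *Il21r*-/-. *Cd8a* had 0 or 1 read in every library, and *Cd5*, which some B cells also express, was called higher in *Il21r*-/-. *Trac* had 4 to 7 reads in the WT libraries and 9 to 26 in those of *Il21r*-/-, *Cd3d* 6 to 8 and 9 to 15, and *Cd3g* 0 to 7 and 1 to 3. *Il7r* had 4 reads in WT day 7 and 0 elsewhere. Myeloid markers (8 genes) summed to 2.52 to 6.6 CPM in WT and 2.63 to 8.86 CPM in *Il21r*-/-, and erythroid markers (4 genes) to 4.07 to 7.49 CPM and 2.36 to 12.2 CPM. NK cell markers (4 genes) summed to 0.366 to 1.21 CPM in WT and 1.61 to 1.64 CPM in *Il21r*-/-, with *Ncr1* at 0. Of these, *Prf1* had 7 to 21 reads in the WT libraries and 26 to 34 in those of *Il21r*-/-, and *Klrb1c* 2 to 11 and 3 to 14. Of the 6 markers listed for plasmacytoid dendritic cells, *Siglech*, *Klk1* and *Ccr9* had at most 2 reads in a library, and the sum of the list was 223 to 313 CPM in WT and 325 to 442 CPM in *Il21r*-/-, of which *Ly6d* was called higher in *Il21r*-/-. *Bst2* is on that list and is also an ISG. Plasma cell markers (5 genes) summed to 2520 to 2740 CPM in WT and 2770 to 3620 CPM in *Il21r*-/-, with *Xbp1* called higher in *Il21r*-/- and *Prdm1* in WT. B lineage markers (5 genes) summed to 7010 to 9190 CPM and 8290 to 11000 CPM, with *Pax5* called higher in *Il21r*-/-. The list of naive or memory B cell markers (7 genes) summed to 549 to 1200 CPM in WT and 911 to 1400 CPM in *Il21r*-/-, where *Fcer2a* and *Ccr6* were called higher in *Il21r*-/- and *Ighm* in WT. The part of these markers in the ISG differences was not tested, and in sorted bulk cells a change in the mix of cells cannot be told apart from a change of RNA per cell.

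Over the 3 days, 5 of the 38 ISGs tested were called, and each was higher in *Il21r*-/- than in WT: *Ifi27*, *Gbp3*, *Xaf1*, *Ddx58* and *Oas1a*, by 1.71- to 1.97-fold. That is 13.2% of the ISGs tested, against 4.52% of all genes tested that were called higher in *Il21r*-/-. No ISG was called higher in WT, against 1.4% of all genes tested. Before adjustment, 11 of the 38 had p under 0.05. The log2 difference (WT minus *Il21r*-/-) was negative, that is higher in *Il21r*-/-, for 33 of the 38 ISGs (86.8%) and for 51.8% of all genes, and its median was -0.20 for the ISGs and -0.01 for all genes. With day as a block in the model, 9 ISGs were called higher in *Il21r*-/- (23.7%, against 13.6% of all genes) and 1 higher in WT (2.63%, against 9.33%). The additional calls under the block were *Ly6e*, *Oas3*, *Samd9l* and *Usp18*, higher in *Il21r*-/-, and *Eif2ak2*, higher in WT. The number of calls moved with single libraries. It was 1 (*Ifi27*) without WT day 14, 2 without WT day 7 and 2 without *Il21r*-/- day 14 (*Ifi27* and *Gbp3* each time), 3 without *Il21r*-/- day 7, and 8 without *Il21r*-/- day 10. Of these 8, 7 were higher in *Il21r*-/- and 1, *Eif2ak2*, was higher in WT. All genes called in the same fits were 1.2% without WT day 14, 4.51% without WT day 7, 2.58% without *Il21r*-/- day 14, 4.01% without *Il21r*-/- day 7 and 19.7% without *Il21r*-/- day 10, the last close to the share of ISGs (21.1%).

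**Figure D1:**
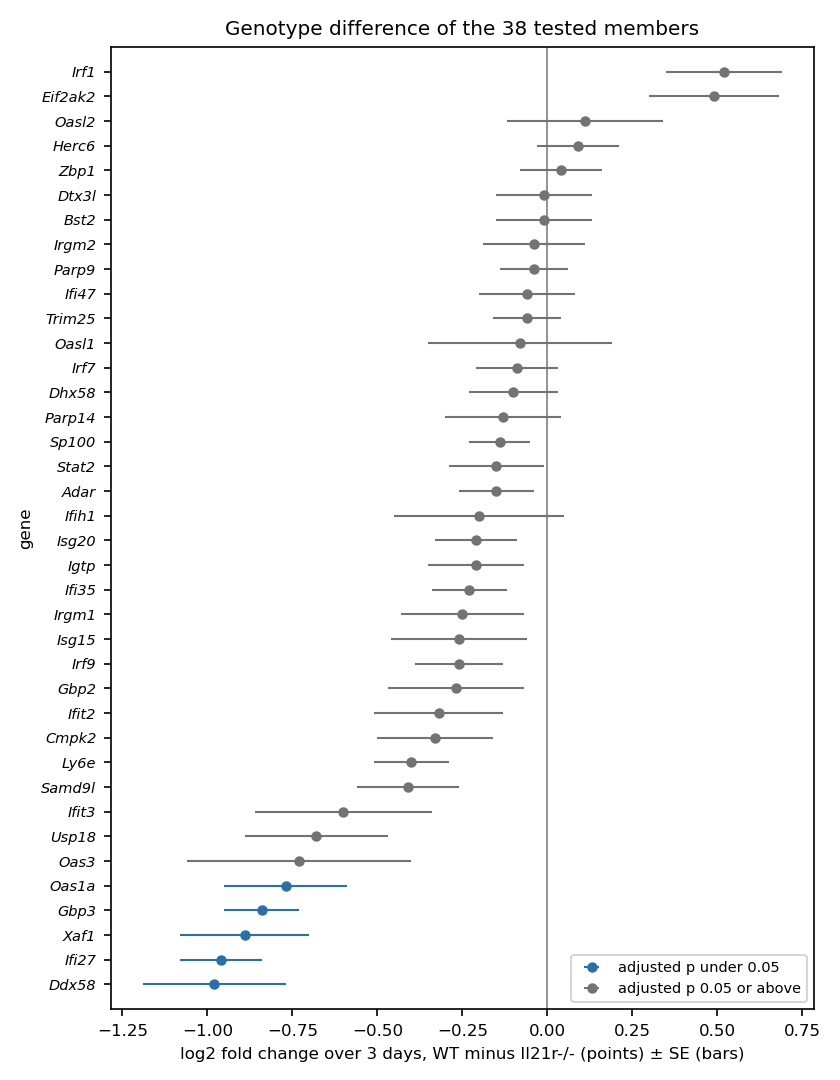
Log2 fold change over 3 days (horizontal axis, WT minus *Il21r*-/-, points; bars are ± 1 SE from the fitted model) for the 38 ISGs tested, sorted by value. The 5 genes called at an adjusted p under 0.05 (blue) lie between -0.98 and -0.77; *Irf1* (0.52) and *Eif2ak2* (0.49) are the highest values and were not called.

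Not every called ISG separated the libraries completely. In 4 of the 38 ISGs (10.5%) all 3 *Il21r*-/- libraries lay above all 3 WT libraries, namely *Ifi27*, *Gbp3*, *Xaf1* and *Usp18*, and 10% of all genes did the same, so that the share of ISGs was near that of all genes. No ISG had all WT libraries above all *Il21r*-/- libraries, against 8.33% of all genes.

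*Ifi27*, which encodes a small hydrophobic protein of mitochondria induced by type I interferon, was the ISG with the smallest p. It lies at chr12:103434189-103440245 (GRCm38). Its level was 30.2, 39.1 and 39.7 CPM in WT on days 7, 10 and 14 and 57.6, 63.2 and 94.9 CPM in *Il21r*-/-. The lowest *Il21r*-/- library was above the highest WT library, and the gap was widest on day 14. The difference was 1.95-fold (log2 -0.96 ± 0.12 SE, adjusted p = 0.00348, edgeR quasi-likelihood test), and it passed the test whichever of the 6 libraries was left out (adjusted p at most 0.0486). By the day-wise likelihood ratio test of edgeR it was higher in *Il21r*-/- by 1.91-fold on day 7 (adjusted p = 0.0178) and by 2.39-fold on day 14 (adjusted p = 5.03e-05). The 1.62-fold difference on day 10 did not pass (adjusted p = 0.107). The gene overlaps *Ifi27l2a*, a close relative, and the sources used here do not say how reads that fall on both were counted.

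*Gbp3*, a guanylate-binding protein of the interferon-inducible GTPases, had the next smallest p. At chr3:142560016-142573213 it stood at 12.9, 15.2 and 16.5 CPM in WT on days 7, 10 and 14 and at 22.4, 25.9 and 32.4 CPM in *Il21r*-/-. No *Il21r*-/- library reached down to the WT range. The difference over 3 days was 1.8-fold (log2 -0.84 ± 0.11 SE, adjusted p = 0.00461, edgeR quasi-likelihood test). It passed without any of 5 libraries and did not without WT day 14 (adjusted p = 0.0755). On single days the fold was 1.73 on day 7 (adjusted p = 0.0905, edgeR likelihood ratio test), 1.71 on day 10 (adjusted p = 0.0478) and 1.96 on day 14 (adjusted p = 0.00441). The day 10 call was lost without WT day 7, without WT day 14 and without *Il21r*-/- day 14, with an adjusted p of up to 0.161. *Gbp3* has close paralogs, and how the counting split reads between them is not known.

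*Xaf1*, which encodes an antagonist of the apoptosis inhibitor XIAP, was low in all libraries. At chr11:72301461-72313733 it stood at 2.97, 3.74 and 2.39 CPM in WT and 6.2, 5.75 and 4.98 CPM in *Il21r*-/- on days 7, 10 and 14, with between 51 and 151 reads per library. Again no library of one genotype lay in the range of the other. The difference of 1.86-fold passed over 3 days (log2 -0.89 ± 0.19 SE, adjusted p = 0.0321) but on no single day, and it did not pass without WT day 7, *Il21r*-/- day 7, WT day 14 or *Il21r*-/- day 14 (adjusted p up to 0.227).

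*Ddx58*, which encodes the cytosolic RNA sensor RIG-I, showed the largest fold of the ISGs tested. At chr4:40203777-40239825 it stood at 6.89, 6.02 and 2.72 CPM in WT and 11.1, 12.5 and 6.26 CPM in *Il21r*-/- on days 7, 10 and 14. WT was lower on each day, although *Il21r*-/- day 14 fell between the WT libraries. The 1.97-fold difference passed over 3 days (log2 -0.98 ± 0.21 SE, adjusted p = 0.0334) and did not without WT day 7, WT day 14 or *Il21r*-/- day 14 (adjusted p up to 0.227). *Oas1a*, an oligoadenylate synthetase whose product activates the ribonuclease RNase L, was at chr5:120896256-120907544. It stood at 6.6, 4.76 and 2.29 CPM in WT and 9.64, 7.73 and 5.1 CPM in *Il21r*-/-, so that WT was lower on each day while the ranges overlapped. Its 1.71-fold difference (log2 -0.77 ± 0.18 SE, adjusted p = 0.0387) passed in 1 of the 6 fits that left out a library, the one without *Il21r*-/- day 10, and the adjusted p reached 0.256 in the others. *Oas1a* has close paralogs, and its counts carry the same uncertainty as those of *Gbp3*.

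**Figure D2:**
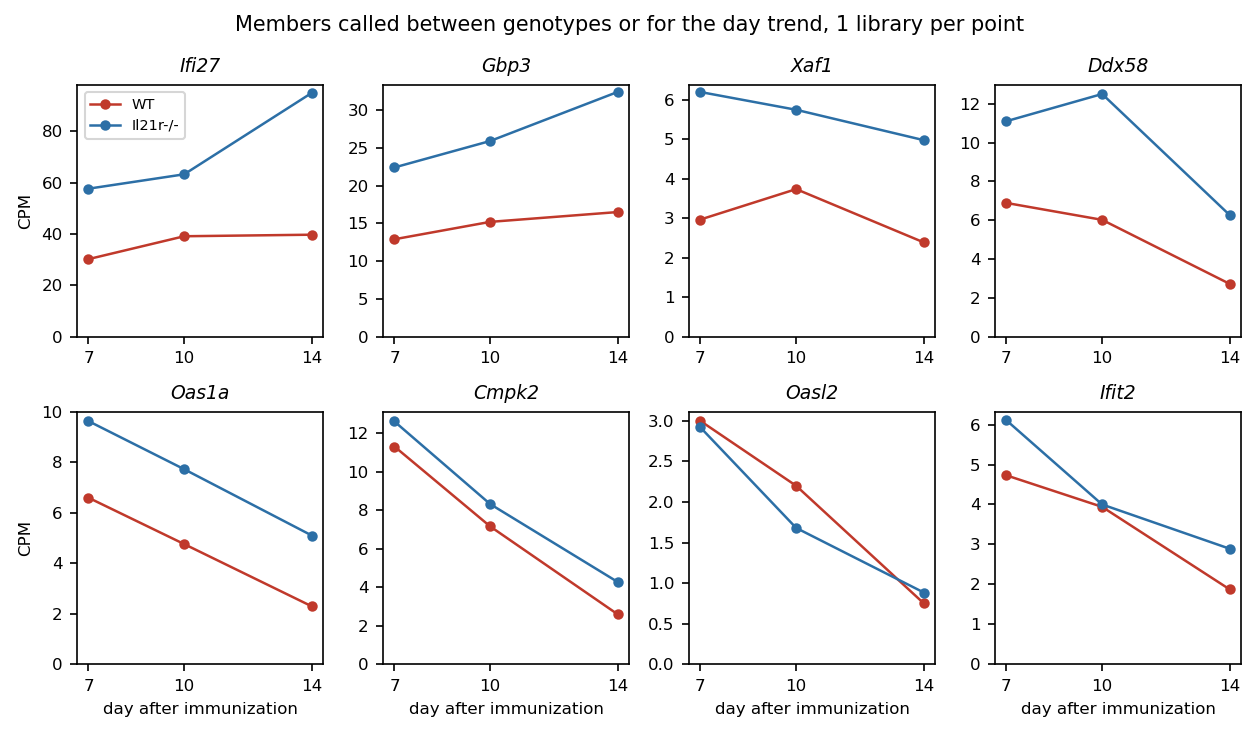
CPM (vertical axes, each from 0) against day after immunization for the 8 ISGs called between genotypes or for the day trend, with 1 library per point, WT in red and *Il21r*-/- in blue. *Ifi27*, *Gbp3* and *Xaf1* do not overlap between genotypes, whereas *Cmpk2*, *Oasl2* and *Ifit2* fall with day in both genotypes and were not called between them.

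The sequences that interferon signaling is known to act on were examined in the promoter windows of RefSeq (GRCm38.p6, 250 bases before to 50 after an annotated start), which were given for 35 of the 46 ISGs. Both strands were searched for an ISRE core, GAAANNGAAA, and for a GAS core, TTCNNNGAA, where N is any base. An ISRE core was present in 17 of the 35 ISGs (48.6%) and in 3.99% of the 27025 genes with a window. A GAS core was present in 11 ISGs (31.4%) and in 9.55% of genes. Matches of the cores can overlap, as the GAS core and an ISRE core do in *Bst2*, and GAAA repeats in tandem give overlapping ISRE cores. Among the ISGs called in any comparison, *Gbp3*, *Ddx58* and *Oas1a* held an ISRE core. *Xaf1*, *Cmpk2*, *Oasl2* and *Ifit2* were also called and had a window without one. No window was given for *Ifi27*, so its promoter was not searched. The sequences of *Gbp3*, *Oas1a* and *Ddx58* are shown 5′ to 3′ on the strand of the gene, with the ISRE cores in capitals. They are the called genes in which this element can be read directly. For *Gbp3* (chr3:142559924-142560043, + strand) and *Oas1a* (chr5:120907526-120907645, - strand) they are the 120 bases before an annotated start, and for *Ddx58* (chr4:40239804-40239833, - strand), whose core lies just after the start, the core with 10 bases on each side.
Gbp3: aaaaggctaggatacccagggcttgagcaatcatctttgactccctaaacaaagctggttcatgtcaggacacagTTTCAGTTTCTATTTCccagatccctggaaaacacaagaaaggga
Oas1a: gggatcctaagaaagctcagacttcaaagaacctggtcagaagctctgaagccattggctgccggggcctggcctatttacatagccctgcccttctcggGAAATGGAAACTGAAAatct
Ddx58: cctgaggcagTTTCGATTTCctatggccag

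In *Gbp3* and *Oas1a* 2 overlapping cores stood in tandem, on the opposite strand in *Gbp3* and on the strand of the gene in *Oas1a*. They began 45 and 20 bases before the start, respectively. *Isg15*, with 3 tandem cores, was not called (log2 -0.26 ± 0.20 SE, adjusted p = 0.483). Of the ISGs that were tested and had a window, the 14 with an ISRE core had a median log2 difference of -0.26. Of these, 13 were higher in *Il21r*-/- and 3 were called over 3 days. The 17 without one had a median of -0.14, with 14 higher in *Il21r*-/- and 1 called. For the day trend, 1 of the 14 with an ISRE core and 3 of the 17 without one were called. Those 10 with a GAS core had a median of -0.18 and the 21 without one -0.25. These medians are descriptions and were not tested. A match of the letters does not show that a factor binds there, and a missing match says only that the letters are not in this window.

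**Figure D3:**
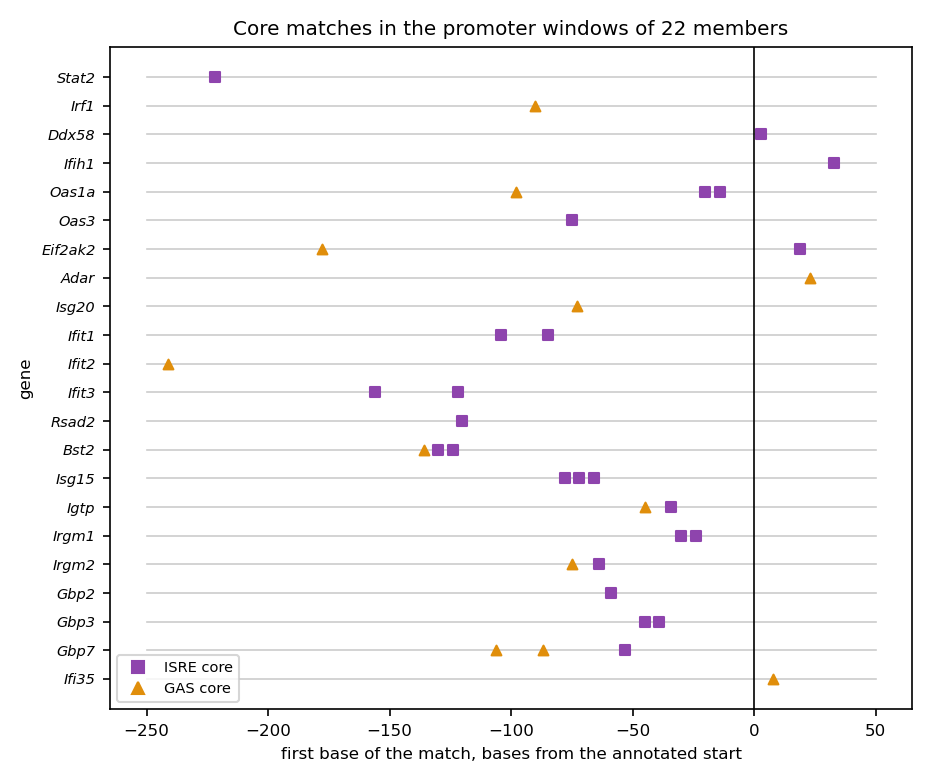
Position of the first base of each ISRE core (squares) and GAS core (triangles), in bases from an annotated start (0, vertical line), in the windows of the 22 ISGs that held either. Grey lines mark the window from 250 bases before to 50 after the start; the cores of *Gbp3* begin 45 and 39 bases before it, and the core of *Ddx58* lies just after it.

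By role, the transcription factors of the response showed no call. *Stat2* and *Irf9*, which act in 1 complex, had log2 differences of -0.15 and -0.26 (adjusted p = 0.58 and 0.284), and *Irf7*, which amplifies type I interferon production, -0.09 (adjusted p = 0.716). *Irf1*, an interferon-induced activator of transcription, was the ISG leaning most to WT. It stood at 45.4, 58.6 and 40 CPM in WT on days 7, 10 and 14 and at 30.5, 30.2 and 40.6 CPM in *Il21r*-/-. WT was higher on days 7 and 10, and the levels lay 1.01-fold apart on day 14. The difference was 1.43-fold over 3 days (adjusted p = 0.129, edgeR quasi-likelihood test) and 1.94-fold on day 10 (adjusted p = 0.0839, edgeR likelihood ratio test), and neither passed in these tests. It was called higher in WT on day 10 with dispersions from the day block, with the linear day term kept, without WT day 14 and without *Il21r*-/- day 14, and over 3 days by DESeq2's Wald test and without both day 14 libraries. *Irf1* held a GAS core 90 bases before its start.

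Among the 4 sensors of nucleic acid, *Ddx58* was called and the other three were not: *Ifih1* (the RNA sensor MDA5) had a log2 difference of -0.20, *Dhx58* (their regulator LGP2) -0.10 and *Zbp1* (a sensor of Z-form nucleic acid) 0.04. Of the 7 tested genes of the OAS family and other enzymes acting on RNA, 5 had a higher level in *Il21r*-/-. *Oas3* stood at 3.33, 2.68 and 0.609 CPM in WT and 3.88, 4.15 and 2.09 CPM in *Il21r*-/-. WT day 14 was the lowest library by far, and the difference (1.66-fold) did not pass (log2 -0.73 ± 0.33 SE, adjusted p = 0.24) except with the block (adjusted p = 0.0388). *Eif2ak2*, which encodes the double-stranded RNA-dependent kinase PKR, went the other way. It stood at 7.51, 11.4 and 10.3 CPM in WT and 5.63, 8.15 and 6.91 CPM in *Il21r*-/-. WT was higher on each day, with ranges that overlapped, and the 1.4-fold difference did not pass without the block (adjusted p = 0.181) and passed with it (adjusted p = 0.0114). *Adar*, an RNA-editing deaminase, and *Isg20*, a ribonuclease, differed by -0.15 and -0.21 on the log2 scale and were not called.

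Of the IFIT family, which binds foreign RNA, *Ifit2* (log2 -0.32 ± 0.19 SE) and *Ifit3* (-0.60 ± 0.26 SE) were tested and not called between genotypes (adjusted p = 0.383 and 0.23). Among the restriction factors, *Ly6e*, a surface protein that limits viral fusion and is also a lymphocyte antigen, was by far the most abundant ISG. It took 0.0972% to 0.163% of the counted reads and had a mean of 586 RPKM (CPM per kilobase of the gene model), against 97.6 for the nuclear body gene *Sp100*, the next highest. *Ly6e* stood at 1400, 1140 and 972 CPM in WT and 1620, 1590 and 1370 CPM in *Il21r*-/- on days 7, 10 and 14, WT being lower on each day with overlapping ranges. Its 1.32-fold difference missed the threshold (log2 -0.40 ± 0.11 SE, adjusted p = 0.0742) and passed with the block (adjusted p = 0.000295). *Samd9l*, a growth-restraining antiviral factor, differed by -0.41 (adjusted p = 0.167, with the block 0.0155), *Cmpk2*, a nucleotide kinase, by -0.33 (adjusted p = 0.313), and *Bst2*, which tethers virions, by -0.01 (adjusted p = 0.983).

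In the ISG15 pathway, *Isg15* (a ubiquitin-like modifier) and its ligases *Herc6* and *Trim25* were not called, with log2 differences of -0.26, 0.09 and -0.06. *Usp18*, which removes ISG15 and restrains IFNAR signaling, stood at 2.42, 2.44 and 1.64 CPM in WT and 3.27, 3.66 and 3.41 CPM in *Il21r*-/-. The ranges did not overlap, but the 1.6-fold difference did not pass (log2 -0.68 ± 0.21 SE, adjusted p = 0.112) except with the block (adjusted p = 0.0256). The ADP-ribosylation and ubiquitination factors *Parp9*, *Parp14* and *Dtx3l* had log2 differences of -0.04, -0.13 and -0.01. *Parp9* and *Dtx3l* overlap in the genome. The GTPases that act on the vacuoles of intracellular pathogens were 6 of 7 tested, all with a negative log2 difference, of which *Gbp3* was called and the other values ranged from -0.27 (*Gbp2*) to -0.04 (*Irgm2*), with *Igtp* at -0.21, *Irgm1* at -0.25 and *Ifi47* at -0.06. Of the remaining ISGs tested, *Ifi35* differed by -0.23 and *Sp100* by -0.14, both not called.

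**Figure D4:**
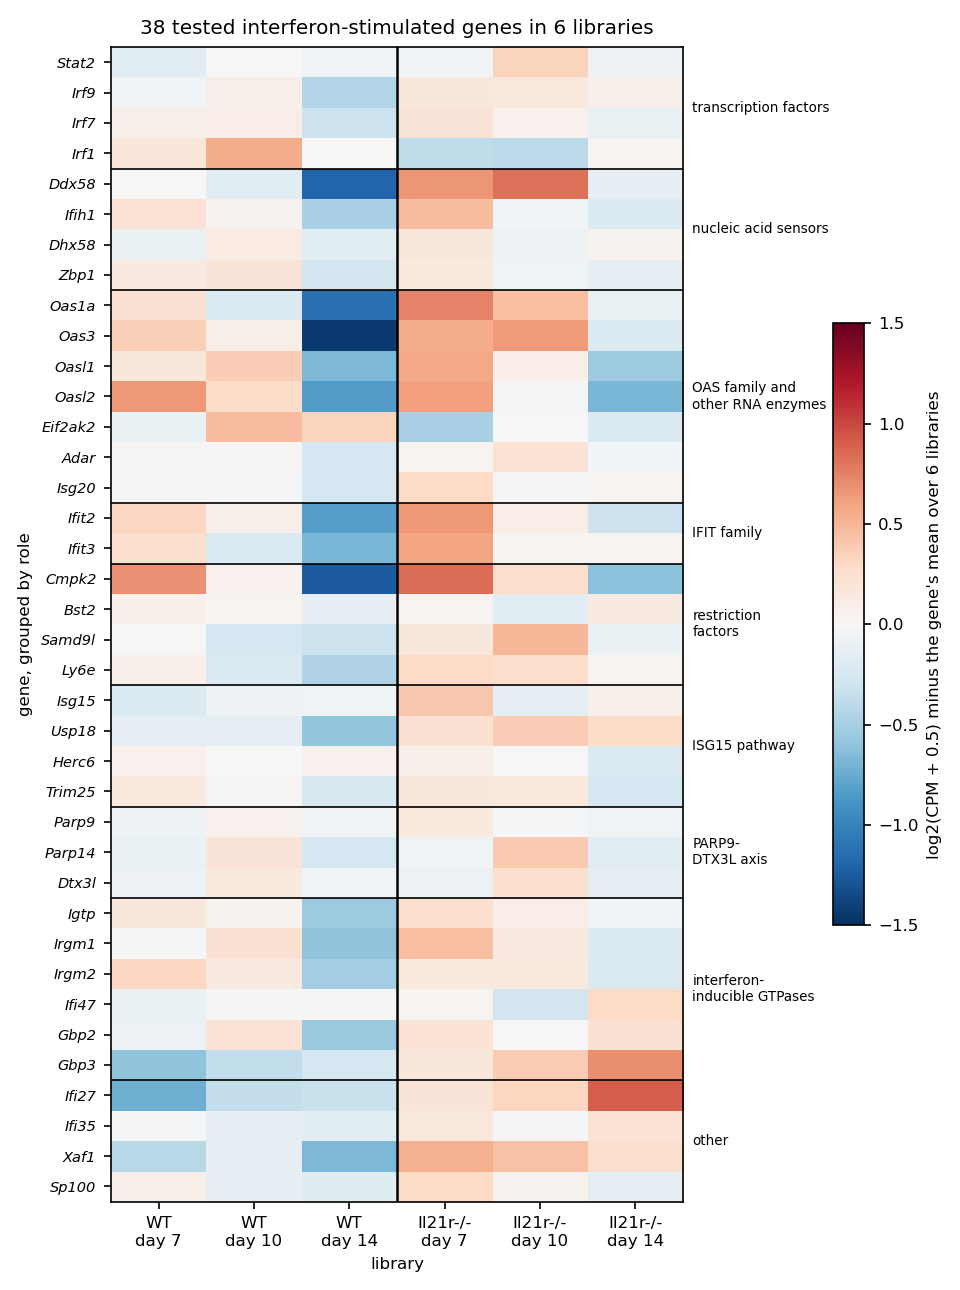
Deviation of each of the 38 ISGs tested (rows, grouped by role) from its own mean over the 6 libraries, in log2(CPM + 0.5), by library (columns, WT left, *Il21r*-/- right); red is above and blue below the mean, and the values run from -1.43 to 0.91. WT day 14 is the bluest column and holds the lowest value of 26 of the 38 ISGs.

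The 8 ISGs below the limit had few or no reads. *Ifi44* had no read in any library, where 3 counts corresponded to 0.11 to 0.14 CPM. *Oas2* (at most 0.203 CPM), *Mx1* (0.114) and *Mx2* (0.0873) were close to that floor. *Mx1* encodes a GTPase against influenza-type viruses and is defective in C57BL/6 mice. *Ifit1* had 22 reads over the 3 WT libraries and 25 over the 3 *Il21r*-/- libraries, *Gbp7* 20 and 27, *Rsad2* (the radical enzyme viperin) 15 and 31, and *Rtp4*, a chaperone of receptors, 42 and 82. Scaled for depth, the ratio *Il21r*-/- to WT was 1.93 for *Rtp4* (95% exact interval 1.32 to 2.87) and 2.04 for *Rsad2* (1.07 to 4.07). The intervals of *Ifit1* (0.608 to 2.09) and *Gbp7* (0.721 to 2.51) included equality. *Rsad2* had 5, 8 and 2 reads in WT on days 7, 10 and 14 and 19, 8 and 4 in *Il21r*-/-, so its ratio rests mostly on the day 7 library of *Il21r*-/-. *Rtp4* had 26, 12 and 4 reads in WT and 35, 33 and 14 in *Il21r*-/-. These exact intervals take in counting error alone and say nothing of the spread between libraries. They treat each read as independent, and the sources used here do not state whether copies made by PCR were marked.

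On single days, with 1 library per genotype and the spread taken from all 6 libraries, calls were fewer. On day 7 *Ifi27* was the 1 ISG called (2.63% of the 38, against 0.872% of all genes), on day 10 *Gbp3* was (2.63%, against 2.6%), and on day 14 both were (5.26%, against 2.55%), each higher in *Il21r*-/-. The ISGs with a higher level in *Il21r*-/- numbered 33, 22 and 32 of 38 on days 7, 10 and 14, with median log2 differences of -0.20, -0.06 and -0.29. For all genes the medians were 0.00, -0.02 and -0.01. With dispersions estimated under the day block, the calls were 2 on day 7, 6 on day 10 (5 higher in *Il21r*-/-, and *Irf1* higher in WT) and 7 on day 14, that is 5.26%, 15.8% and 18.4% of the ISGs tested, against 2.75%, 7.47% and 9.59% of all genes called in the same fits. Without *Il21r*-/- day 10 the calls were 2 on day 7 and 4 on day 14, against 2% and 6.4% of all genes. The day-wise and 3-day comparisons share their libraries, so they are not independent of one another.

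Levels of ISGs also differed by day. A linear trend over days 7 to 14 in both genotypes together was called in 4 ISGs, and each fell: *Cmpk2*, *Oasl2*, *Oas1a* and *Ifit2*. That is 10.5% of the ISGs tested, against 3.36% of all genes that were called and fell. In all, 32 of the 38 ISGs had a negative slope, against 49.5% of all genes. *Cmpk2* fell from 11.3 CPM to 7.15 and 2.58 CPM in WT and from 12.6 CPM to 8.31 and 4.26 CPM in *Il21r*-/- over days 7, 10 and 14. Both genotypes fell at each step. Its fitted decline from day 7 to day 14 was 3.54-fold (slope -0.261 ± 0.030 log2 per day, SE; adjusted p = 0.00626, edgeR quasi-likelihood test), and the call was lost without WT day 7 or WT day 14 (adjusted p up to 0.0978).

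*Oasl2*, a member of the OAS-like branch of the family, fell from 3 CPM to 2.2 and 0.749 CPM in WT and from 2.92 CPM to 1.68 and 0.883 CPM in *Il21r*-/-, a fitted 3.55-fold decline (adjusted p = 0.017). *Oas1a* fell 2.28-fold (adjusted p = 0.0234), and *Ifit2* fell from 4.73 CPM to 3.94 and 1.87 CPM in WT and from 6.11 CPM to 4 and 2.89 CPM in *Il21r*-/-, also a fitted 2.28-fold decline (adjusted p = 0.0296). All were lowest on day 14 in both genotypes, with 16 to 82 reads per library for *Oasl2*. Each of these 3 calls was lost without any 1 of the 4 libraries of days 7 and 14, with an adjusted p of up to 0.197 for *Oasl2*, 0.263 for *Oas1a* and 0.317 for *Ifit2*. Without both day 14 libraries *Cmpk2* was called and fell, and *Eif2ak2* was called and rose. These were 5.26% of the ISGs tested, against 11% of all genes called in the same fit. The number of ISGs called for the trend was 0 without WT day 7 and without WT day 14, 1 (*Cmpk2*) without *Il21r*-/- day 7 and without *Il21r*-/- day 14, and 16 without *Il21r*-/- day 10, of which 14 fell and 2, *Gbp3* and *Ifi27*, rose. In the last fit 42.1% of the ISGs and 19.8% of all genes were called, against 10.5% and 4.43% with the 6 libraries. All genes called for the trend were 0% without WT day 7 and 0.0454% without WT day 14. They were 0.327% without *Il21r*-/- day 7 and 1.29% without *Il21r*-/- day 14. In this design a time after immunization cannot be told apart from a library or sorting batch of that day where both genotypes shared one.

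Counted without a test, 16 of the 38 ISGs (42.1%) were lower at each later day in WT, against 26.5% of all genes, and 18 (47.4%) in *Il21r*-/-, against 17% of all genes. A positive slope over both genotypes was found in 6 of the 38 ISGs. *Il21r*-/- day 14 held the highest value of 6 ISGs (15.8%, against 18.7% of all genes). *Gbp3* and *Ifi27* were in both groups, with slopes of 0.0635 and 0.0811 log2 per day. Their slopes did not pass (adjusted p = 0.106 and 0.0665, edgeR quasi-likelihood test). Both were called as rising without *Il21r*-/- day 10, and *Ifi27* also by DESeq2's Wald test and when all genes with any count were tested. WT day 14 held the lowest value of 26 ISGs (68.4%) and of 22.7% of all genes, and *Il21r*-/- day 7 the highest value of 19 ISGs (50%) and of 17.3% of all genes. The median deviation of the ISGs from their own means (log2) was 0.01, 0.05 and -0.33 in the WT libraries of days 7, 10 and 14 and 0.19, 0.10 and -0.08 in those of *Il21r*-/-.

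Whether the decline with day differed between genotypes was tested by the interaction of genotype and day. No ISG and no gene was called by edgeR's quasi-likelihood test or by DESeq2. At an unadjusted p under 0.05 the edgeR test had 0 of the 38 ISGs and 118 of all genes (1.07%), and the smallest p of an ISG was 0.129, for *Oas3*. A p above the threshold does not show that the slopes were the same.

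The genes upstream of the ISGs were described from a list of 39 genes of the interferon pathway. None of the 8 interferon genes listed (*Ifna1*, *Ifna2*, *Ifna4*, *Ifnb1*, *Ifne*, *Ifng*, *Ifnl2* and *Ifnl3*) had a read in any library. Of the 39, 29 were tested and 6 were called over 3 days (20.7%, against 4.52% of all genes in this direction), each higher in *Il21r*-/-: 3 of the 6 receptor chains (*Ifngr2*, *Ifnlr1* and *Il10rb*) and 3 sensors or adaptors (*Tlr7*, *Ikbke* and *Sting1*). With the day block 11 were called (37.9%, against 13.6% of all genes in this direction), all higher in *Il21r*-/-, the others being *Ifnar2*, *Irf4*, *Jak2*, *Trex1* and *Tyk2*. Without WT day 14 the one call left was *Tlr7*. There were 3 calls without WT day 10 and 3 without *Il21r*-/- day 14. All genes called in these fits were 1.2% without WT day 14, 3.11% without WT day 10 and 2.58% without *Il21r*-/- day 14.

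*Ifngr2*, the signaling chain of the interferon gamma receptor, stood at 26, 17.9 and 14.4 CPM in WT on days 7, 10 and 14 and at 41.1, 37.8 and 30.1 CPM in *Il21r*-/-. Its ranges did not overlap, and the 1.91-fold difference passed over 3 days (log2 -0.93 ± 0.12 SE, adjusted p = 0.00427, edgeR quasi-likelihood test), though not without WT day 14 (adjusted p = 0.0686). *Ifnlr1* stood at 5.35, 7.07 and 7.21 CPM in WT and 8.99, 12.2 and 14.1 CPM in *Il21r*-/- (1.78-fold, adjusted p = 0.0143). *Il10rb*, which serves both type III interferons and IL-10 family cytokines, stood at 17, 10.6 and 8.29 CPM in WT and 23.9, 21 and 19.6 CPM in *Il21r*-/- (1.85-fold, adjusted p = 0.0171). Both receptor chains were apart between genotypes in every library. The calls of both were lost without WT day 14 and without *Il21r*-/- day 14, that of *Ifnlr1* also without WT day 7 and that of *Il10rb* also without WT day 10, with adjusted p up to 0.162 and 0.176. The partner chains *Ifngr1* (log2 0.06 ± 0.10 SE), *Ifnar1* (-0.24 ± 0.14 SE) and *Ifnar2* (-0.41 ± 0.15 SE) were not called (adjusted p = 0.774, 0.38 and 0.157), and with the block *Ifnar2* was (adjusted p = 0.0201).

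*Tlr7*, an endosomal sensor of single-stranded RNA, had the largest difference among the 29 pathway genes tested. It stood at 2.05, 1.38 and 0.983 CPM in WT and at 5.59, 8.31 and 4.54 CPM in *Il21r*-/-, with no overlap, and was 4.25-fold higher in *Il21r*-/- (log2 -2.09 ± 0.28 SE, adjusted p = 0.00407), a call kept without any 1 of the 6 libraries (adjusted p at most 0.0486). *Ikbke*, a kinase that activates IRF3 and IRF7, stood at 3.15, 2.6 and 5.24 CPM in WT and 6.42, 11 and 8.51 CPM in *Il21r*-/- (2.41-fold, adjusted p = 0.0224). *Sting1*, the adaptor of cytosolic DNA sensing, stood at 104, 71.2 and 55.1 CPM in WT and 129, 111 and 94.3 CPM in *Il21r*-/- (1.48-fold, adjusted p = 0.0231). WT was lower on each day in both, and each call was lost in 4 of the 6 fits that left out a library, with adjusted p up to 0.0744 for *Ikbke* (without WT day 7, *Il21r*-/- day 7, WT day 10 or WT day 14) and 0.229 for *Sting1* (without *Il21r*-/- day 7, WT day 10, WT day 14 or *Il21r*-/- day 14).

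Among the IRF factors, *Irf3* had all WT libraries above all *Il21r*-/- libraries and was not called (log2 0.20, adjusted p = 0.251, edgeR quasi-likelihood test). Such a separation was found in 8.33% of all genes tested, and the reverse in 10%. Of the inhibitors of cytokine signaling, *Socs1* differed by -0.20 (log2, adjusted p = 0.428, same test). Its *Il21r*-/- libraries all lay above its WT libraries. *Socs3*, an inhibitor best known as a STAT3 target, was below the limit with 63 reads over the WT libraries and 2 over the *Il21r*-/- libraries. That is a depth-scaled ratio of 31.9 (95% exact interval 8.46 to 269, counting error only). When all genes with any count were tested, *Socs3* was called higher in WT over 3 days. It was singled out after its values had been seen.

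**Figure D5:**
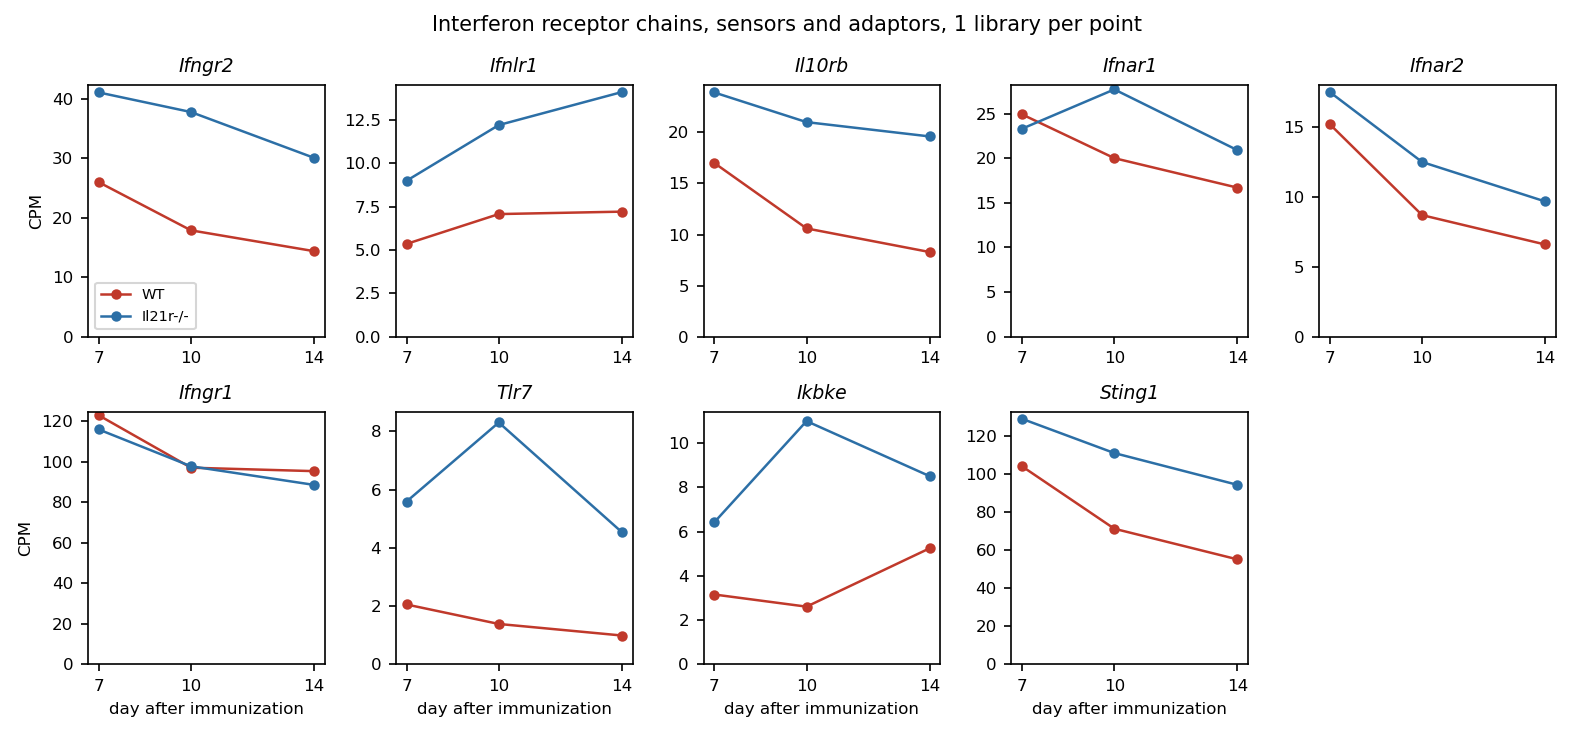
CPM (vertical axes, each from 0) against day after immunization for 9 genes of interferon reception and induction, with 1 library per point, WT in red and *Il21r*-/- in blue. *Ifngr2*, *Ifnlr1*, *Il10rb*, *Tlr7* and *Ikbke* are higher in every *Il21r*-/- library than in any WT library, as were 10% of all genes tested. *Ifnar1*, *Ifnar2* and *Ifngr1* overlap.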

How the data were processed

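Total RNA of sorted cells was made into TruSeq libraries and sequenced with 1 read per fragment (CASAVA 1.8.2 per the submitters' processing notes). The authors aligned reads to mm10 with Rsubread and deposited raw gene counts (whole reads) from featureCounts with its inbuilt RefSeq annotation, technical replicates pooled, without normalization. Strand and multi-mapping settings are not given in the sources used here. The table of all libraries and the single-library tables differed in 0 genes. Symbols, positions and promoter sequences came from RefSeq tables of GRCm38.p6; 1904 of the 27179 identifiers had no symbol.

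With R 4.3.3 and edgeR 4.0.16, low genes (aveLogCPM under 0) were left out, and so were Ig variable genes, *Xist* and genes of the Y chromosome, as in the study, and TMM factors were computed. Dispersions came from genotype plus a linear day effect (common dispersion 0.017, a coefficient of variation of 13.1%; 3 residual degrees of freedom). The genotype effect over 3 days, the day trend and their interaction were tested by quasi-likelihood, and single days by likelihood ratio with a mean per day. P-values were adjusted by Benjamini-Hochberg over 11005 genes, and a gene was called under 0.05. CPM used TMM-scaled library sizes. SEs came from the information matrix of the fit.

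The methods name 2 independent immunizations without saying which libraries came from which, so p-values measure the spread between these libraries. Day pairs the libraries: after the genotype means were removed, the libraries of day 7, 10 and 14 correlated with r = 0.654, 0.464 and 0.669 across the genes, which are not independent replicates. The ISGs, pathway genes and markers were chosen with earlier results of these data known. Values in every library were given for *Il21r*, for ISGs called in any comparison, for those with the largest folds up to 10, and for called pathway genes; those of *Irf1*, *Eif2ak2* and *Ly6e* were added after their values were seen. Alternatives were DESeq2 1.42.0, other filters and scaling, a day block, a kept linear day term, and leaving out each library. Some genes of the lists are not reported here.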

Additional observations from a re-analysis of the deposited data

How the results depend on the processing

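The median log2 difference of the ISGs over 3 days stayed negative in the 11 alternatives run, from -0.27 to -0.13, and the interaction of genotype and day had 0 ISGs called in each of its alternatives. With the replicate block (day as a factor), 10 ISGs and 11 pathway genes were called over 3 days, and with dispersions from the block 2, 6 and 7 ISGs were called on days 7, 10 and 14. With the linear day term kept, 3 were called on day 10 (7.89%, against 6.56% of all genes) and 4 on day 14 (10.5%, against 3.6%). With DESeq2's size factors, and also with all genes that had any count, 0 ISGs were called on day 10, where *Gbp3* is close to the threshold. All genes called in these 2 fits were 3.05% and 1.97%. For the day trend, the calls were 9 with all genes that had any count (8 fell, *Ifi27* rose), that is 20%, against 5.14% of all genes. By DESeq2's Wald test they were 7 (6 fell, *Ifi27* rose), that is 18.4%, against 7.91% of all genes. Without both day 14 libraries, an alternative chosen after seeing the data, they were 2 (*Cmpk2* fell, *Eif2ak2* rose). That is 5.26%, against 11% of all genes. When single libraries were left out, the calls ran from 1 to 8 ISGs and from 1 to 8 pathway genes over 3 days, from 1 to 2 on day 7, 0 to 2 on day 10, 2 to 4 on day 14, and 0 to 16 for the trend. In the fit without *Il21r*-/- day 10, 1 ISG (*Eif2ak2*) and 1 pathway gene (*Jak1*) were called higher in WT over 3 days. Such fits have fewer samples, and the one library left on a day is assumed to vary like the rest. Over the 19 called results of single genes, 162 of 212 values under an alternative kept the call, 50 lost it and 0 changed direction; of the 106 values with a library left out, 61 kept it. The block lost none of the genotype calls, over 3 days or on single days. Differences of low ISGs are limited by depth, since 3 counts are 0.11 to 0.14 CPM.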
